A study of Mus musculus with 12 samples.

Results

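The 33 genes described here, from a table of 36186 gene rows, encode enzymes of cholesterol and fatty acid synthesis and proteins that regulate them. They were taken from a list of gene names drawn up with earlier results of these data known: 32 were found under their Gene Symbol, and *Msmo1* was found under its older symbol *Sc4mol*. Expression was measured by RNA-Seq of chondrocytes taken by laser capture microdissection (LCM) from the forelimb zeugopod (the radius and ulna) of mouse embryos at E15.5, on a mixed 129/CD-1 background. Of the 12 libraries, 9 came from wild type (WT) embryos, with 3 from resting, 3 from proliferative and 3 from hypertrophic cartilage. The other 3 libraries came from *aadd* embryos, which were homozygous for frameshift mutations in *Hoxa9,10,11* and *Hoxd9,10,11* in every cell. These small elements could not be divided into compartments, so their chondrocytes were captured whole, and the labels call them resting. The labels call the WT hypertrophic libraries hyperproliferative. The captured cells were mostly chondrocytes with some perichondrium, and the study speaks of 3 independent sets without saying which embryos each set came from, so the P values measure the spread between these libraries.

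Cholesterol is built from acetyl-CoA. The mevalonate pathway makes isoprenoid units and joins them into squalene, and a second series of enzymes closes squalene into rings and trims the product to cholesterol. Most enzymes of both series, and many of fatty acid synthesis, are switched on together by the SREBP transcription factors: the carrier SCAP takes SREBP out of the endoplasmic reticulum when sterol is low, and the INSIG proteins hold SCAP back when sterol is high. Cartilage is sensitive to this pathway. Cholesterol is attached to the Hedgehog proteins that signal in the growth plate, and inherited defects of *EBP*, *NSDHL*, *SC5D* and *DHCR7* malform the skeleton.

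The 33 genes fell into 4 roles: 8 mevalonate and isoprenoid enzymes, 10 enzymes from squalene to the finished sterol, 5 regulators, and 10 fatty acid enzymes. Their promoters are shown first because shared control by SREBP is read from promoter elements. The RefSeq promoter table (GRCm38.p6, the build of the expression table) held a window from 250 bases before to 50 bases after the start for 27 of the 33, and where a gene had several, the window nearest the row's own start was taken. For *Acaca* that window lay 65766 bases from the row's start. 4 motifs were searched on both strands, namely TCACNCCAC (the core of the sterol element), CCAAT (the box bound by NF-Y), GGGCGG (the box of the SP factors) and CACGTG (the E-box). TCACNCCAC was found in 1 of the 27 windows, that of *Hmgcs1*, against 1.24% of all 32851 windows in the table. CCAAT was found in 13 of the 15 windows of sterol enzymes (86.7%) against 37.4% of all windows, and GGGCGG in 14 of the 15 (93.3%) against 35.7%. In the 7 windows of fatty acid enzymes CCAAT was found in 4 and GGGCGG in 2. CACGTG was found in 5 of the 27 windows (18.5%) against 7.15%. GC content was higher in the member windows (median 60.3%) than in all windows (52.7%), and its part in these shares was not tested. A match of letters is a description and not a site of binding.

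The 5 windows printed here belong to *Hmgcs1*, which acts early in the mevalonate pathway and alone held the sterol core, and to *Idi1*, *Lss*, *Dhcr7* and *Insig2*, whose expression is described below. They run 5′ to 3′ on the strand of the gene, and capitals mark TCACNCCAC and CCAAT on either strand (CCAAT on the other strand reads ATTGG). They lie at chr13:119690101-119690400, plus strand (*Hmgcs1*), chr13:8885356-8885655, plus strand (*Idi1*), chr10:76531355-76531654, plus strand (*Lss*), chr7:143822917-143823216, plus strand (*Dhcr7*) and chr1:121332540-121332839, minus strand (*Insig2*).
Hmgcs1: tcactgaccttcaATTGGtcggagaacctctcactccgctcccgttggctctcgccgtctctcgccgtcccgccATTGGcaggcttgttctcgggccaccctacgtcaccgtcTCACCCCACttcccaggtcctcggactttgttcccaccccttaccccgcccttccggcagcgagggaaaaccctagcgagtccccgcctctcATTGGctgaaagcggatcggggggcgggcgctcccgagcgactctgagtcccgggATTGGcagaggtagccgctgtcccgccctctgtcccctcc
Idi1: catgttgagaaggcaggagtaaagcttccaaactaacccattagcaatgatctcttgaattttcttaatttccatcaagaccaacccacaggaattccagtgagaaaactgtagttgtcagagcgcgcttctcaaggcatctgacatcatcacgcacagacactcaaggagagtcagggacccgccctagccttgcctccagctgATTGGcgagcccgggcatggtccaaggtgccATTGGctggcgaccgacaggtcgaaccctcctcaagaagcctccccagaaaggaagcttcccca
Lss: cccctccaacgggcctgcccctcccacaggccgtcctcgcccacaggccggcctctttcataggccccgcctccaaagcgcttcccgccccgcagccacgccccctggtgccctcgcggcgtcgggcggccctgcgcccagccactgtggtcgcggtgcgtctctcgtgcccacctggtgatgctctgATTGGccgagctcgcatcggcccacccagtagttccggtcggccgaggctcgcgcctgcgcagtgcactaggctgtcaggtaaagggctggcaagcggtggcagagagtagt
Dhcr7: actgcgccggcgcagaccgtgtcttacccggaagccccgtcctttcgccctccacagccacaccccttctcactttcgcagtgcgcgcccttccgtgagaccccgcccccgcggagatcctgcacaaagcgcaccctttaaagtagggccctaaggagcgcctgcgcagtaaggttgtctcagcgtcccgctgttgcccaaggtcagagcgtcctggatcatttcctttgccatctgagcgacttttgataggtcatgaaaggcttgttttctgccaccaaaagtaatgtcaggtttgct
Insig2: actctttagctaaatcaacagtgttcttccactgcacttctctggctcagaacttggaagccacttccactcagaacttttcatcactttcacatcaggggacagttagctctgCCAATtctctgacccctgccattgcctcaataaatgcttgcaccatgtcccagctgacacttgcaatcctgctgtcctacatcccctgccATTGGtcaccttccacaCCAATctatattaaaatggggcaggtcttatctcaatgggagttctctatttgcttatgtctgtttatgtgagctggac
*Hmgcs1* carried 4 CCAAT boxes, *Insig2* 3, *Idi1* 2 and *Lss* 1. The *Dhcr7* window held neither marked motif.

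The unit throughout is the NRPKM, the study's normalized form of the RPKM, which divides reads by transcript length and library depth. A gene entered the tests at 5 NRPKM or more in at least 3 of the 12 libraries, which left 10936 genes and 32 of the 33 members. The gene that did not pass was *Acacb*, the mitochondrial acetyl-CoA carboxylase, which lay between 0.393 and 3.91 NRPKM. Over the 9 WT libraries the tested members averaged from 4.70 NRPKM for *Tm7sf2*, a sterol reductase, to 140.0 for *Scd2*, a stearoyl-CoA desaturase that puts the double bond into saturated fatty acids. The value of a single read, taken from short single-exon genes, put depth at about 1890000 to 3240000 reads per library, so that the tested members rested on about 4.0 reads (*Ebp* in *aadd* replicate 2) to 2190 reads (*Scd2*), taking the longest coding transcript as length. Reads that aligned to several places had been removed, so sequence shared by *Scd1* and *Scd2* is not counted for either. *Fdps* is uncertain because 81.3% of its transcript lies in an overlapping gene model, *Gm43738*, and 20.9% of the *Fdft1* transcript overlaps *Ctsb* on the opposite strand, which cannot be told apart where strand was not recorded.

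The transcript level of the targeted genes does not show a frameshift. In *aadd* libraries 3 of the 6 targeted genes (*Hoxd9*, *Hoxd10*, *Hoxd11*) lay above every WT resting library and 1 (*Hoxa11*) lay below. The labelled cell type was borne out by the 5 chondrocyte markers (*Col2a1*, *Acan*, *Sox9*, *Col9a1*, *Matn1*), whose summed level ran from 1420 to 2840 NRPKM in the 9 libraries that were not hypertrophic. The sum of 5 osteoblast and perichondrium markers was 189 to 420 NRPKM in resting and 331 to 829 in proliferative libraries. It was 644 to 1640 in hypertrophic and 170 to 540 in *aadd* libraries. Within the WT hypertrophic group replicate 1 stood apart from replicates 2 and 3, and the hypertrophic counts below are given with and without it. The chondrocyte sum was 1590 NRPKM in replicate 1 but 378 and 542 in replicates 2 and 3. The sum of 5 osteoclast markers was 35.6 in replicate 1 against 1170 and 857, that of 5 endothelial markers was 14.8 against 206 and 149, and that of 4 macrophage markers was 20.3 against 268 and 220. The sum of 5 Schwann cell markers went the other way, at 39.3 in replicate 1, its highest value in the 12 libraries, against 3.42 and 5.07. The sum of 5 hypertrophic markers was 1060 NRPKM in replicate 1 against 2960 and 3210, where the proliferative libraries reached at most 454. Of these markers, the late hypertrophic gene *Mmp13* was at 3.05 NRPKM in replicate 1 and at 735 and 661 in the others. *Col10a1*, the collagen of hypertrophic cartilage, was at 264, 166 and 221. In bulk samples fewer cells of a type and less RNA per cell cannot be told apart.

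In the WT, most sterol enzymes had higher mean values in the proliferative than in the resting compartment, but 2 of the 18 passed the criteria. From resting to proliferative, 17 of the 18 sterol enzymes had a positive log2 fold change, with a median of 0.52 where the median over all genes tested was -0.06. Of the 32 members, 3 passed the criteria (an unadjusted P of 0.05 or less and FC of at least 2 in the limma test), all higher: *Dhcr7*, *Scd1* and *Idi1*. That is 9.38% of the members against 2.56% of all genes tested, and 0 members were lower against 2.97%. By the P limit alone, 12 of 32 members were higher (37.5%) against 7.11% of all genes: *Hmgcs1*, *Mvd*, *Idi1*, *Lss*, *Cyp51*, *Msmo1*, *Nsdhl*, *Hsd17b7*, *Sc5d*, *Dhcr7*, *Scd1* and *Scd2*. Every proliferative library lay above every resting library in 13 of the 32 members (40.6%), and in 9.83% of all genes. After adjustment over all genes, 1 member (*Dhcr7*) stayed under 0.05, where 0.622% of genes did. The summed level of 5 hypertrophic markers also differed between these compartments, at 223 to 454 NRPKM in proliferative and 19.6 to 26.2 in resting libraries. Proliferative replicate 3 had a skeletal muscle sum of 65.3 NRPKM, where replicates 1 and 2 had 10.6 and 3.93. Its osteoblast and perichondrium sum was 829, where the other 2 had 371 and 331. The part of these differences was not tested.

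**Figure D1:**
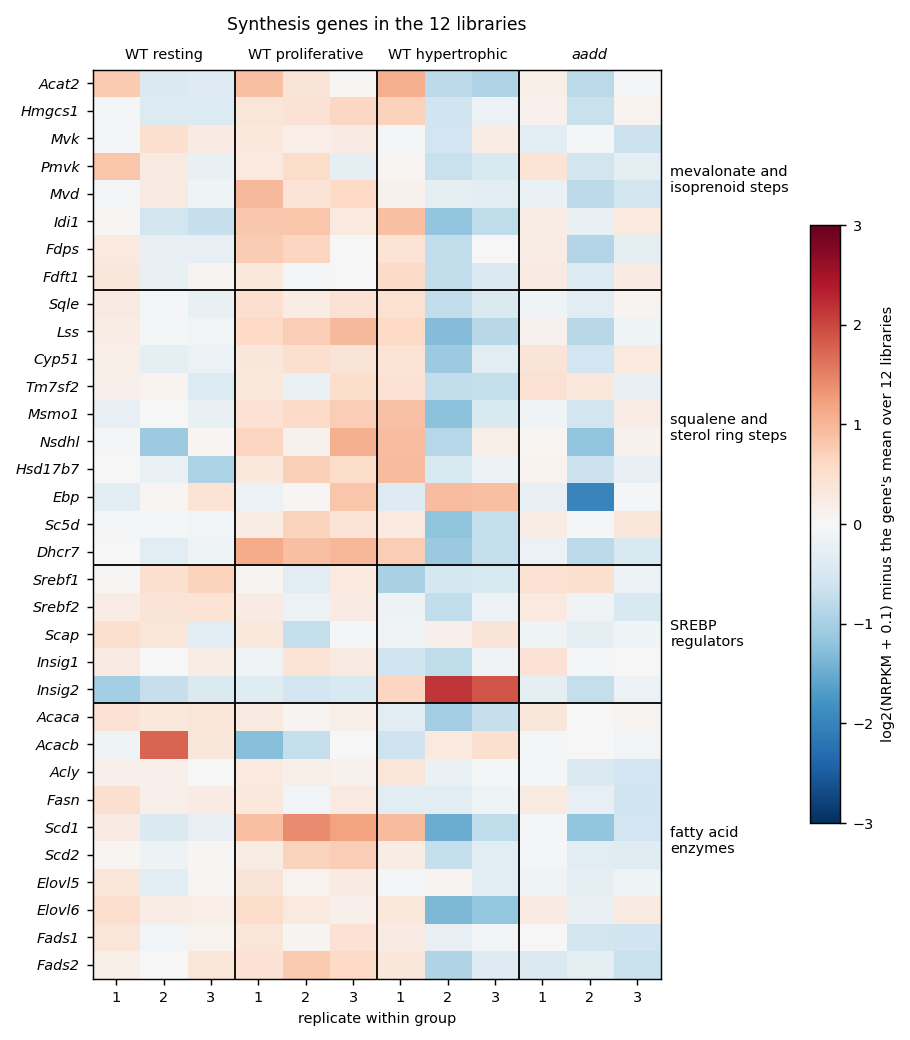
Each row is a member, grouped by role, and each column a library; color gives log2(NRPKM + 0.1) minus the mean of that gene over the 12 libraries (red higher, blue lower). Most sterol enzymes are red in the 3 proliferative libraries and in hypertrophic replicate 1 and blue in hypertrophic replicates 2 and 3, and *Insig2* shows the reverse in replicates 2 and 3.

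*Dhcr7* encodes 7-dehydrocholesterol reductase, which makes cholesterol in the last step of a branch of the pathway, and lies at chr7:143823167-143848410 (mm10). It measured 25.7, 20.6 and 23.5 NRPKM in the resting libraries and 55.9, 48.3 and 51.8 in the proliferative ones. The groups did not overlap, and the rise was 2.23-fold (log2 fold change 1.16, SE 0.16, limma adjusted P = 0.045). With the replicate number as a block the adjusted P was 0.083, and over all alternatives it ran from 0.033 to 0.20.

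*Scd1*, the other stearoyl-CoA desaturase (chr19:44394450-44407709), was at 43.8, 27.6 and 31.4 NRPKM in resting and 69.3, 99.1 and 86.5 in proliferative chondrocytes. All 3 proliferative libraries were higher, by 2.5-fold (log2 fold change 1.32, SE 0.24, limma adjusted P = 0.086). *Idi1*, the isomerase that makes the reactive isoprenoid unit (chr13:8885606-8892396), measured 21.9, 14.5 and 13.2 NRPKM in resting and 37.0, 37.8 and 26.1 in proliferative libraries. Here too the groups did not overlap (log2 fold change 1.04, SE 0.26, limma adjusted P = 0.15). *Idi1* lost its call with a pseudocount of 1 and without WT resting replicate 2, WT resting replicate 3, WT proliferative replicate 1 or WT proliferative replicate 2, whereas *Dhcr7* and *Scd1* passed in every alternative.

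Of the other mevalonate enzymes, *Hmgcs1*, the synthase just before mevalonate is made, averaged 29.8 ± 4.23 (SD, n = 3) NRPKM in resting and 50.6 ± 4.42 in proliferative chondrocytes, without overlap. *Mvd*, which makes the first isoprenoid unit, averaged 11.8 ± 1.82 and 18.5 ± 3.74. Neither reached FC 2. *Acat2* (thiolase, 19.4 ± 10.2 and 25.4 ± 7.84) and *Fdps* (farnesyl diphosphate synthase, 29.9 ± 6.88 and 44.0 ± 11.2) overlapped between the compartments. The kinases *Mvk* (11.5 ± 2.12 and 11.6 ± 0.470) and *Pmvk* (13.2 ± 4.86 and 12 ± 3.30) and the squalene synthase *Fdft1* (24.5 ± 4.87 and 24.9 ± 3.37) had log2 fold changes of 0.03, -0.11 and 0.03.

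All 10 enzymes from squalene onward had a positive log2 fold change, from 0.18 (*Ebp*) to 1.16 (*Dhcr7*). In 7 of them the proliferative libraries lay wholly above the resting ones. *Lss*, which closes squalene epoxide into lanosterol (chr10:76531627-76553934), measured 23.8, 19.6 and 19.3 NRPKM in resting and 30.7, 34.2 and 40.3 in proliferative libraries. *Cyp51*, the lanosterol demethylase, averaged 26.4 ± 4.51 in resting and 36.8 ± 2.09 in proliferative libraries, and *Msmo1*, a methylsterol oxidase, 12.9 ± 1.26 and 21.4 ± 2.31. *Nsdhl*, which works beside it, averaged 17.7 ± 6.63 and 34.1 ± 11.0, *Hsd17b7*, a sterol ketone reductase, 4.63 ± 1.51 and 8.51 ± 1.19, and *Sc5d*, the lathosterol desaturase, 15.9 ± 0.184 and 22.4 ± 3.54. None of these 6 reached FC 2. The squalene epoxidase *Sqle* (39.1 ± 6.89 and 50.8 ± 4.55), *Tm7sf2* (4.58 ± 0.938 and 5.54 ± 1.38) and *Ebp*, the sterol isomerase (4.67 ± 1.16 and 5.44 ± 2.15), overlapped.

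The regulators did not pass in this comparison: 0 of 5 met the criteria, and 0 had an unadjusted limma P of 0.05 or less. Among the fatty acid enzymes the 2 desaturases of stearate had the largest log2 fold changes, 1.32 for *Scd1* and 0.56 for *Scd2*, which averaged 125 ± 9.88 in resting and 187 ± 34.2 NRPKM in proliferative libraries without overlap. *Fads2*, the delta-6 desaturase of polyunsaturated fatty acids, averaged 38.7 ± 5.21 and 51.8 ± 6.13, also without overlap and below the FC limit. The enzymes that build the chain had log2 fold changes near 0: -0.20 for *Acaca*, -0.12 for *Fasn*, 0.10 for *Acly* and 0.02 for *Elovl6*. *Elovl5* (31.0 ± 7.09 and 35.5 ± 3.20) and *Fads1* (46.9 ± 7.41 and 52.0 ± 6.45) overlapped between the compartments.

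**Figure D2:**
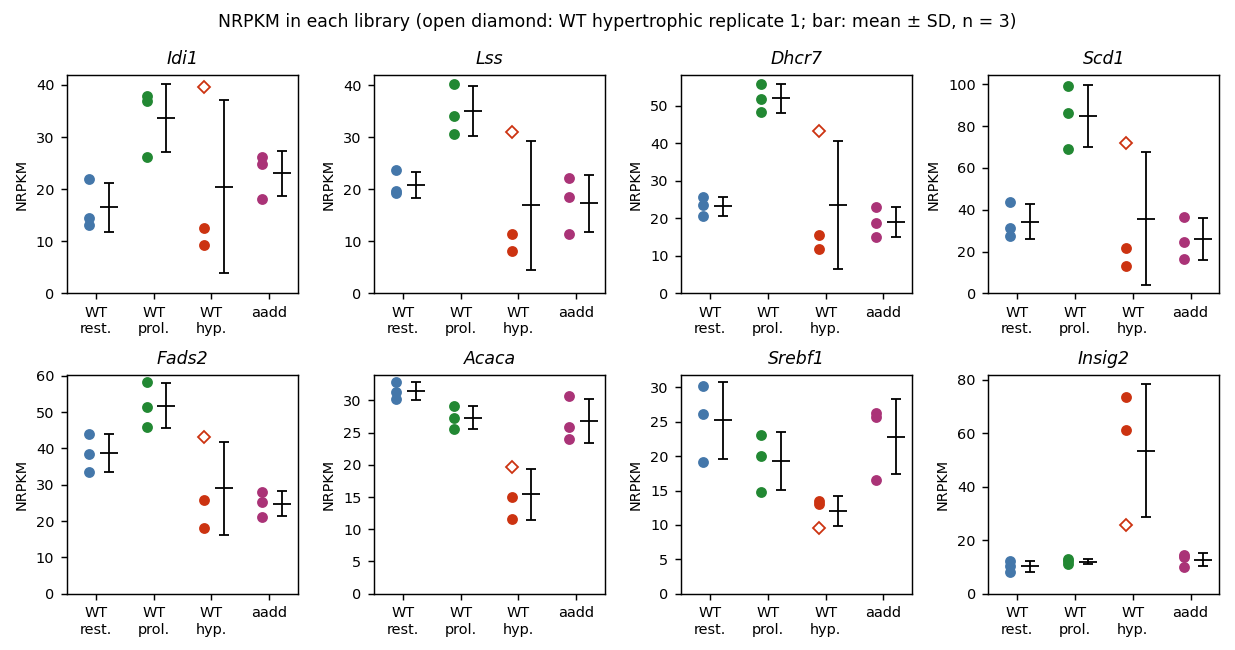
NRPKM of 8 members (linear axes) in each of the 12 libraries; points are libraries, the open diamond is WT hypertrophic replicate 1, and bars give the mean ± SD of 3 libraries. For *Idi1*, *Lss*, *Dhcr7* and *Scd1* the diamond lies far above the other hypertrophic points, whereas for *Acaca* and *Srebf1* the 3 hypertrophic libraries lie together below all resting libraries.

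Between proliferative and hypertrophic chondrocytes 29 of 32 members had a negative log2 fold change (median -0.60, against 0.04 over all genes), yet only 4 passed the criteria. *Insig2* was higher (3.12% of members against 5.32% of all genes), and *Lss*, *Dhcr7* and *Scd1* were lower (9.38% against 4.34%). The spread inside the hypertrophic group was wide for the 3 that were lower. In the hypertrophic libraries *Lss* measured 31.1, 8.22 and 11.4 NRPKM, *Dhcr7* 43.2, 11.9 and 15.7, and *Scd1* 72.1, 13.2 and 21.9. Replicate 1 was within the proliferative range for *Lss* and *Scd1* and just under it for *Dhcr7*, and the other two were far under it. No gene tested had a limma adjusted P under 0.05 in this comparison, while 11 members (34.4%) had an unadjusted P of 0.05 or less, against 19.3% of all genes. Leaving out any WT proliferative library, or hypertrophic replicate 2 or 3, left *Insig2* as the 1 member past the criteria.

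Without hypertrophic replicate 1 the count rose to 13 of 32: *Insig2* was higher (3.12% of members against 9.79% of all genes), and 12 members were lower (37.5% against 8.56%). The 12 were *Acat2*, *Idi1*, *Lss*, *Cyp51*, *Msmo1*, *Sc5d* and *Dhcr7* of the sterol enzymes and *Acaca*, *Scd1*, *Scd2*, *Elovl6* and *Fads2* of the fatty acid enzymes, and 17 of the 32 members had a limma adjusted P under 0.05, where 17.4% of all genes did. The largest falls were those of *Scd1* (log2 fold change -2.30, limma adjusted P = 0.011), *Dhcr7* (-1.92, adjusted P = 0.0079), *Lss* (-1.84, adjusted P = 0.011) and *Idi1* (-1.61, adjusted P = 0.018). With replicate 1 as the only hypertrophic library, assumed to vary like the proliferative group, 0 members were lower (2.56% of all genes) and *Insig2* alone was higher (3.12% against 1.98%). The sterol enzymes then had a median log2 fold change of 0.04, against -0.96 without that library.

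Replicate 1 was above both other hypertrophic libraries in 16 of the 18 sterol enzymes and in 24 of the 32 members (75.0%), against 39.5% of all genes tested. Its median ratio to the mean of the other two was 2.22 for the sterol enzymes, 1.46 for the fatty acid enzymes and 0.969 for all genes. The exceptions among the sterol enzymes were *Ebp*, at 3.34, 8.51 and 8.29 NRPKM, and *Mvk*, at 9.43, 6.47 and 11.3. Replicates 2 and 3 were both under every proliferative library in 26 of the 32 members (81.2%), against 25.3% of all genes. These were the libraries with the low chondrocyte sum and the high osteoclast, endothelial and macrophage sums. The Schwann cell sum was highest in replicate 1, and the part of all these cells in the difference was not tested.

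**Figure D3:**
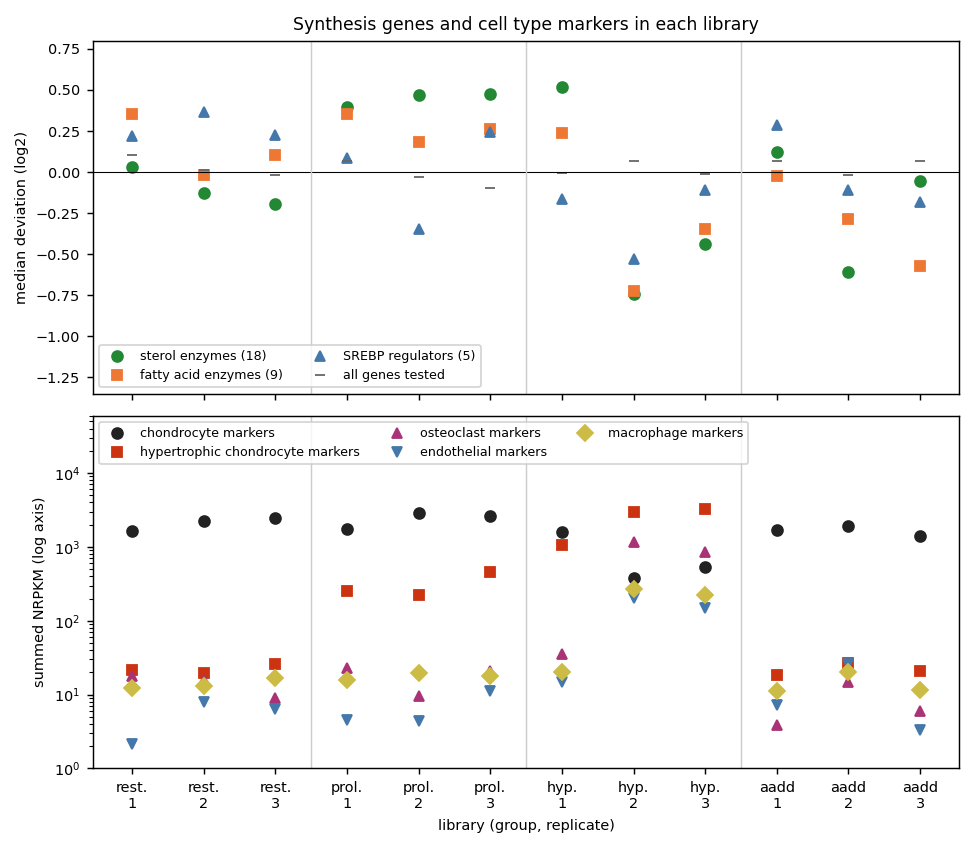
Upper panel, median over each role of log2(NRPKM + 0.1) minus the mean of the gene over the 12 libraries; lower panel, summed NRPKM of marker lists on a log axis, both for each library. Sterol enzymes stand at 0.40 to 0.52 in the proliferative libraries and hypertrophic replicate 1 and at -0.74 and -0.44 in hypertrophic replicates 2 and 3, where the chondrocyte sum is lowest and the osteoclast, endothelial and macrophage sums are highest.

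Against the resting compartment 3 members passed in hypertrophic chondrocytes, *Insig2* higher (3.12% of members against 5.84% of all genes) and *Srebf1* and *Acaca* lower (6.25% against 7.2%), shares that were below those of all genes. All 18 sterol enzymes missed the criteria here (0 with an unadjusted limma P of 0.05 or less, and 0 adjusted). Without hypertrophic replicate 1 the members called were *Insig2*, higher (3.12% against 9.42%), and *Lss*, *Acaca* and *Elovl6*, lower (9.38% against 9.83%). *Elovl6*, which lengthens palmitate, measured 60.1, 49.6 and 48.6 NRPKM in resting, 61.9, 51.8 and 47.4 in proliferative and 52.7, 16.6 and 18.8 in hypertrophic libraries, so that only replicates 2 and 3 were low. With replicate 1 alone, *Idi1*, *Msmo1*, *Hsd17b7*, *Scd1* and *Insig2* were higher (15.6% against 4.46%) and *Srebf1* lower (3.12% against 7.05%).

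In 4 of the 5 regulators (*Insig2*, *Insig1*, *Srebf1* and *Srebf2*) replicate 1 lay on the same side of the resting libraries as hypertrophic replicates 2 and 3. *Insig2*, which retains SCAP in the endoplasmic reticulum (chr1:121304353-121332580), measured 8.12, 10.2 and 12.2 NRPKM in resting, 12.8, 11.1 and 12.1 in proliferative and 25.8, 73.7 and 61.1 in hypertrophic libraries. All 3 hypertrophic libraries were above all others, with replicate 1 the lowest of them, and the part of the cells marked in replicates 2 and 3 was not tested. The rise was 4.83-fold over resting (log2 fold change 2.27, SE 0.42, limma adjusted P = 0.034) and 4.05-fold over proliferative (log2 fold change 2.02, SE 0.41, adjusted P = 0.13). Without replicate 1 the limma adjusted P values were 0.0018 and 0.0045, and *Insig2* passed the criteria in every alternative run for both comparisons. Its range of adjusted P over the alternatives was 0.0018 to 0.14 against resting and 0.0045 to 0.67 against proliferative.

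*Insig1*, a relative of *Insig2* that is itself a target of SREBP, differed in direction. It measured 37.7, 31.5 and 36.4 NRPKM in resting, 28.8, 41.2 and 37.5 in proliferative and 20.5, 18.4 and 28.8 in hypertrophic libraries. It was lower in every hypertrophic library than in any resting library, but the difference, -0.66 on the log2 scale (SE 0.22, limma adjusted P = 0.12), did not reach FC 2 with hypertrophic replicate 1 or without it (-0.61). *Srebf1*, whose protein favors the fatty acid genes (chr11:60199089-60220604), measured 19.2, 26.2 and 30.2 in resting, 20.0, 14.8 and 23.1 in proliferative and 9.59, 13.0 and 13.5 in hypertrophic libraries. It fell by 1.05 on the log2 scale from resting to hypertrophic (SE 0.24, limma adjusted P = 0.059), and all 3 hypertrophic libraries, replicate 1 being the lowest, were under all others. The call was lost without hypertrophic replicate 1 (-0.90), without WT resting replicate 3 and with a pseudocount of 1, always on the FC limit.

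*Srebf2*, whose protein favors the sterol genes, measured 25.9, 29.1 and 29.6 in resting, 26.2, 19.7 and 26.3 in proliferative and 19.8, 13.3 and 19.7 in hypertrophic libraries. The hypertrophic libraries were all under the resting ones (log2 fold change -0.70, SE 0.21, limma adjusted P = 0.10), below the FC limit with hypertrophic replicate 1 and without it (-0.80). *Scap*, the carrier, measured 17.7, 16.2 and 10.1, then 15.7, 7.57 and 12, then 11.8, 14.0 and 16.4 NRPKM in the resting, proliferative and hypertrophic libraries, which overlapped in every pair.

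*Acaca*, the cytosolic carboxylase that commits acetyl-CoA to fatty acids (chr11:84129672-84401651), was the 1 enzyme called as lower in hypertrophic than in resting chondrocytes. It measured 32.9, 30.2 and 31.3 NRPKM in resting, 29.1, 25.5 and 27.3 in proliferative and 19.6, 11.6 and 15.0 in hypertrophic libraries. The hypertrophic libraries were under all others, and the fall from resting was 2.08-fold (log2 fold change -1.06, SE 0.23, limma adjusted P = 0.048, range over alternatives 0.0057 to 0.22). It lost the call, on the FC limit, without hypertrophic replicate 2 (-0.87) and with replicate 1 as the only hypertrophic library (-0.68). *Fasn*, the synthase that follows it, averaged 40.5 ± 4.66 in resting and 27.6 ± 2.03 in hypertrophic libraries without overlap, a difference of -0.55 on the log2 scale (limma adjusted P = 0.11, and -0.52 without replicate 1) that was below the FC limit. *Acly*, which supplies cytosolic acetyl-CoA, averaged 40.7 ± 2.14 and 39.1 ± 8.2 and overlapped.

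**Figure D4:**
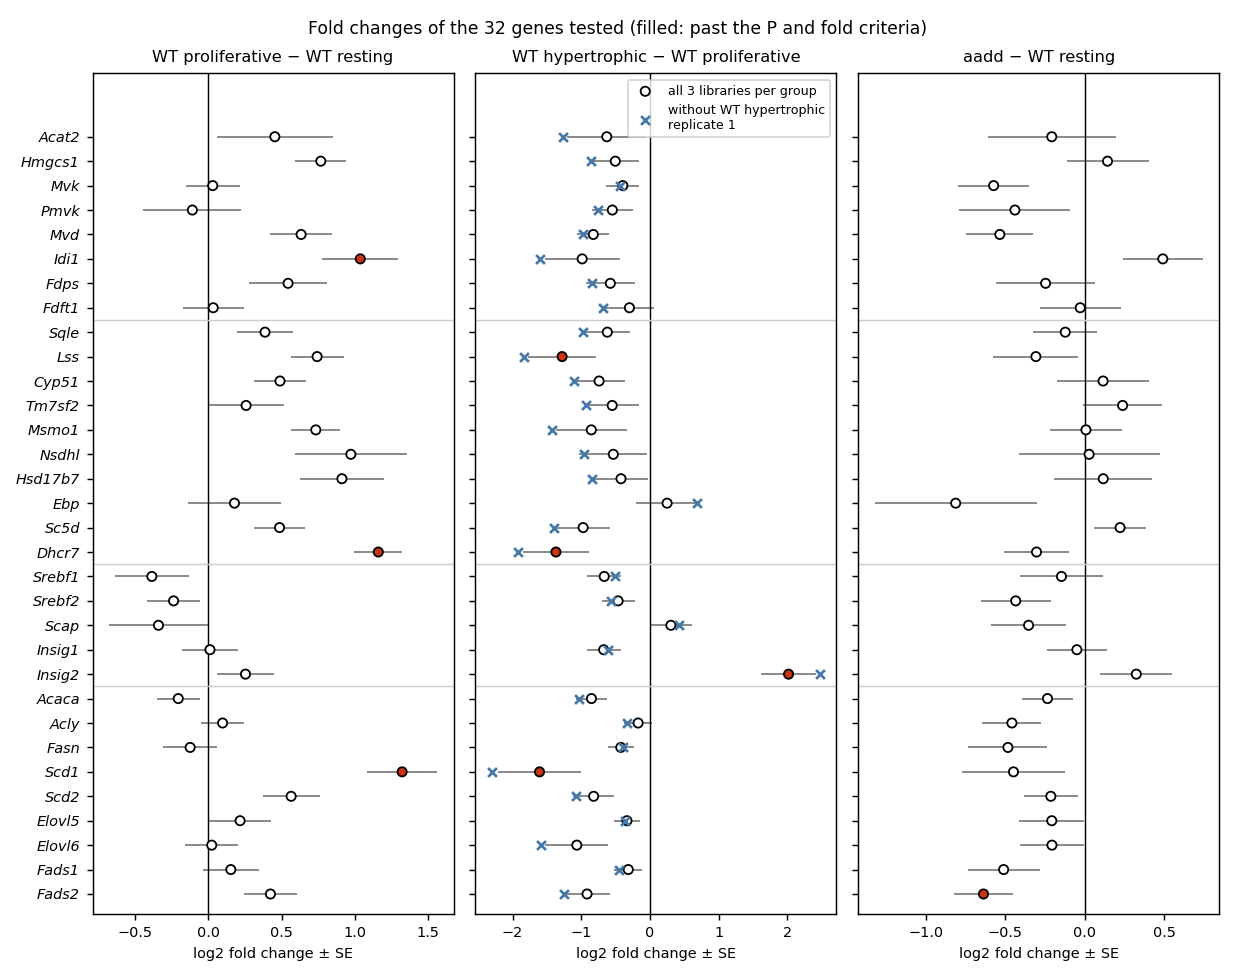
Log2 fold change ± SE from limma for the 32 members tested, in 3 comparisons with separate x axes; filled points passed the criteria and crosses give the values without WT hypertrophic replicate 1. Values are mostly above 0 from resting to proliferative and below 0 from proliferative to hypertrophic, where the crosses lie farther from 0 for most enzymes, and all 9 fatty acid enzymes are below 0 in *aadd*.

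In *aadd* chondrocytes against WT resting chondrocytes, for which the FC limit was 1.5, 1 of 32 members passed. This was *Fads2*, lower (3.12% of members against 2.78% of all genes), and 0 were higher against 3.78%. *Fads2* (chr19:10064164-10101503) measured 38.4, 33.6 and 44.0 NRPKM in resting and 25.3, 27.9 and 21.2 in *aadd* libraries. The groups did not overlap, and the log2 fold change was -0.64 (SE 0.19), but the limma adjusted P was 0.35. Without *aadd* replicate 3 or without WT resting replicate 3 *Fads2* did not pass. 0 members had an adjusted P under 0.05, and 4 (12.5%) had an unadjusted limma P of 0.05 or less, near the 9.58% of all genes: *Mvk* (11.5 ± 2.12 in resting and 7.73 ± 1.58 NRPKM in *aadd*), *Mvd* (11.8 ± 1.82 and 8.2 ± 1.68), *Acly* (40.7 ± 2.14 and 29.9 ± 5.78) and *Fads2*. These were also the 4 members in which every *aadd* library lay under every resting library (12.5%, against 7.34% of all genes).

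All 9 tested fatty acid enzymes had a negative log2 fold change in *aadd*, from -0.21 to -0.64, with a median of -0.45 against 0.01 over all genes, under the deposited scaling and both others tried. Of these, 8 did not pass the criteria. *Fads1*, the delta-5 desaturase (chr19:10182888-10196872), averaged 46.9 ± 7.41 in resting and 33.2 ± 8.27 in *aadd* libraries, *Fasn* 40.5 ± 4.66 and 29.7 ± 9.28, and *Scd1* 34.3 ± 8.49 and 25.9 ± 10.1. The sterol enzymes had a median of -0.08, with 8 of 18 positive and 10 negative (7 and 11 under either other scaling), and the regulators had 1 positive (*Insig2*, 13.7, 10.1 and 14.5 NRPKM in *aadd*) and 4 negative. The *aadd* libraries measured 25.7, 26.3 and 16.5 NRPKM for *Srebf1*, 27.1, 20.6 and 16.1 for *Srebf2*, 11.5, 10.5 and 11.5 for *Scap*, and 41.7, 30.5 and 30.7 for *Insig1*, and each overlapped the resting libraries. The sum of 5 skeletal muscle markers was 28.6, 35.0 and 12.8 NRPKM in *aadd* against 3.76 to 6.48 in resting libraries. It was not particular to *aadd*: its highest value was 65.3 in WT proliferative replicate 3, and hypertrophic replicates 2 and 3 had 14.9 and 24.3. *Actc1* was the 1 marker of the 5 that passed the filter. All 5 chondrocyte markers had negative log2 fold changes (median -0.32), of which 0 passed the criteria and 0 had an unadjusted limma P under 0.05. The part of these differences in the *aadd* values was not tested.

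The *aadd* libraries were uneven. The median deviation of the sterol enzymes was 0.13, -0.61 and -0.05 in replicates 1, 2 and 3. That of the fatty acid enzymes was -0.03, -0.28 and -0.57, so their lowest library was replicate 3. Replicate 2 had the highest endothelial sum (26.2 NRPKM against 7.15 and 3.34) and erythroid sum (188 against 56.3 and 74.6) of the mutants. Its osteoblast and perichondrium sum was also the highest of the mutants (540 against 170 and 221), and the part of those cells was not tested. *Ebp* was at 3.71, 1.04 and 4.21 NRPKM in these libraries, where its lowest value rested on about 4.0 reads. Without *aadd* replicate 1 the count of members past the criteria was 7, all lower (*Acly*, *Fads1*, *Fads2*, *Fasn*, *Mvd*, *Scd1* and *Srebf2*), where 3.75% of all genes were lower and 4.33% higher. Without replicate 2 it was 3 (*Fads2* and *Mvk* lower, against 3.69% of all genes, and *Idi1* higher, against 3.95%), and without replicate 3 it was 0 (1.96% of all genes lower and 3.04% higher).

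Over all 4 groups together, 3 of 32 members had a limma F test adjusted P under 0.05, *Insig2* (0.0057), *Acaca* (0.017) and *Mvd* (0.024), where 13.8% of all genes did. The number moved with the hypertrophic libraries for members and for all genes. Without hypertrophic replicate 1 it was 13 of 32, where 28.1% of all genes passed, and without hypertrophic replicate 2 or 3 it was 1 (*Insig2*), where 7.16% and 5.74% did.

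Genes around the pathway were read from lists fixed by name. Of 12 tested genes of sterol uptake, transport and efflux, 1 was higher (8.33%, against 5.32% of all genes) and 3 lower (25.0%, against 4.34%) in hypertrophic than in proliferative chondrocytes. Without hypertrophic replicate 1 these counts were 4 (33.3%, against 9.79% of all genes) and 3 (25.0%, against 8.56%). The median log2 fold change of the 12 was 0.44 without that replicate and -0.255 with it as the only hypertrophic library. The gene that rose was *Abca1*, the cholesterol exporter switched on by oxysterols, at 6.31, 2.85 and 5.45 NRPKM in proliferative, 3.32, 5.30 and 6.29 in resting and 27.7, 33.5 and 33.5 in hypertrophic libraries. All 3 hypertrophic libraries were above all others, and replicate 1 was close to the other two (log2 fold change 2.69 over resting, limma adjusted P = 0.0056, and 2.74 over proliferative, adjusted P = 0.079). Among those that fell were *Stard4*, a sterol carrier (21.4 ± 6.79 to 8.31 ± 2.92), and *Soat1*, which esterifies cholesterol for storage (29.0 ± 4.83 to 14.6 ± 4.41). Both also passed without replicate 1, and neither did with that library alone. *Npc2*, which frees cholesterol from lysosomes, rose from 18.9 ± 3.42 in resting to 44.4 ± 9.97 in hypertrophic chondrocytes (limma adjusted P = 0.042, and 0.011 without replicate 1). In *aadd* against resting, *Scarb1*, a lipoprotein receptor (31.4 ± 4.62 to 20.9 ± 3.71), and *Nr1h2*, an oxysterol receptor (12.1 ± 2.04 to 7.84 ± 0.809), passed as lower, with limma adjusted P values of 0.41 and 0.37.

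Of 9 genes that process or degrade SREBP and its regulators, 0 passed in any of the 4 comparisons, and at most 1 had an unadjusted limma P of 0.05 or less in each. Without hypertrophic replicate 1, 1 of the 9 was higher than in resting chondrocytes (11.1%, against 9.42% of all genes). Of 8 further enzymes of the sterol and isoprenoid branches 0 passed, again with at most 1 under that P limit in each comparison, but without hypertrophic replicate 1 there were 2 that were lower than in proliferative chondrocytes (25.0%, against 8.56% of all genes). Of 20 tested fatty acid genes outside the members, 1 was higher (5.0%, against 2.56% of all genes) and 1 lower (5.0%, against 2.97%) in proliferative than in resting chondrocytes. *Slc25a1*, the mitochondrial citrate carrier that feeds *Acly*, rose (15.7 ± 5.82 to 35.6 ± 2.27, limma adjusted P = 0.12), and *Dgat2*, a triglyceride synthase, fell (5.71 ± 1.73 to 2.53 ± 0.823, adjusted P = 0.19). *Me1*, a source of NADPH, fell from proliferative to hypertrophic (41.1 ± 14.3 to 15.7 ± 7.36, limma adjusted P = 0.18, and 0.024 without replicate 1). With all libraries it was the 1 gene of the 20 called there (5.0% lower, against 4.34% of all genes). *Acsl1*, which activates fatty acids, fell from resting to hypertrophic (20.4 ± 1.21 to 9.61 ± 2.16, limma adjusted P = 0.037). *Dgat2* also fell (5.71 ± 1.73 to 2.91 ± 1.51), with an adjusted P of 0.18. These 2 made 10.0% of the 20, against 7.2% of all genes lower. Without replicate 1 neither reached FC 2 (-0.94 and -0.88 on the log2 scale). *Me1* was then lower than in resting chondrocytes (5.0% of the 20, against 9.83% of all genes). *Elovl1* and *Acsl5*, which lengthen and activate fatty acids, were higher (10.0%, near the 9.42% of all genes). Of 10 tested genes of fatty acid oxidation and storage, 3 (30.0%) were higher and 0 lower in hypertrophic chondrocytes than in either other compartment, where 5.32% of all genes were higher against proliferative and 5.84% against resting. They were *Cpt1a*, which admits fatty acids to mitochondria (2.51, 18.4 and 10.1 NRPKM), *Acadm*, a dehydrogenase of the chain (16.7, 32.2 and 21.9), and *Lpl*, which releases fatty acids from lipoproteins (9.30, 43.2 and 30.1). Replicate 1 was the lowest of the 3 in each. *Cpt1a* reached 5 NRPKM only in hypertrophic replicates 2 and 3 and *aadd* replicate 3 (5.06). It thus entered the tests through libraries where it was high, which adds to the share of 30.0%. Without hypertrophic replicate 1, 6 of the 10 genes passed against proliferative and 5 against resting, all higher (9.79% and 9.42% of all genes). The median log2 fold changes of the 10 were then 1.196 and 0.987. With that replicate as the only hypertrophic library they were -0.008 and 0.059. The endothelial, osteoclast and macrophage sums were high in the same replicates 2 and 3, as was *Fabp4* (4.01, 38.9 and 30.1 NRPKM), a fatty acid binding protein of adipocytes and endothelium, and their part was not tested.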

How the data were processed

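The 12 libraries were made from RNA of LCM chondrocytes, amplified with the NuGEN RNA-Seq System V2 and tagmented with Nextera. The authors deposited RPKM values normalized in GeneSpring (NRPKM) per gene, with mm10 as the build and TopHat named in the submitters' processing notes; reads of low quality, duplicates and reads with several alignments had been removed. How libraries were scaled to each other and whether strand was used are not given in the sources used here. Read counts were not used here, so depth was estimated.

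Values were tested as log2(NRPKM + 0.1) with limma 3.58.1 in R 4.3.3, on the 10936 genes that reached 5 NRPKM in 3 or more of the 12 libraries, the study's own filter. A fold change is on that scale and understates changes of low genes. Each pair of groups was fitted alone. P values were two-sided, and adjusted values (Benjamini-Hochberg) are over all genes tested. The fit was tested on simulated data. Groups came from the sample labels. Members and gene lists were chosen with earlier results of these data known. All members were to be named, with every library's value for those past the criteria and for the regulators. Alternatives were another pseudocount, other filters and scalings, all 12 libraries in a single fit, the replicate number as a block, and each library left out; using replicate 1 as the only hypertrophic library was added after the data were seen. For proliferative against resting, libraries with the same number deviated together from the group means, with correlations of 0.281, 0.179 and 0.198 over genes. For the other comparisons the values ran from -0.0973 to 0.28 and not every pair was above 0.1. The value of 0.28 was that of *aadd* replicate 2 with WT resting replicate 2, which came from different embryos. Correlations of this size therefore cannot settle whether the numbers pair the libraries. The main tests did not use the number, and the fits with it as a block are given as alternatives.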

Additional observations from a re-analysis of the deposited data

How the results depend on the processing

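No member past the criteria turned direction under any alternative. From resting to proliferative 3 members passed, against 5 after quantile normalization and 2 to 5 when single libraries were left out (5 without WT resting replicate 1). From proliferative to hypertrophic 4 passed, against 2 without the filter on low values, 1 with replicate 1 as the only hypertrophic library and 1 to 13 with single libraries left out. From resting to hypertrophic 3 passed, against 6 with replicate 1 as the only hypertrophic library and 2 to 4 with single libraries left out. For *aadd* against resting 1 passed, against 2 with rescaling by the median of ratios, 2 after quantile normalization (*Mvk* added in both) and 0 to 7 with single libraries left out. Over the 4 groups 3 passed, against 1 without the filter and 1 to 13 with single libraries left out. With the replicate block the counts were 3, 3, 4, 1 and 4 in the same order; besides the adjusted P of *Dhcr7*, the block removed the calls of *Lss* and *Scd1* from proliferative to hypertrophic and added *Elovl6* there and against resting, and *Dhcr7* over the 4 groups; from resting to proliferative it changed no call of the criteria. With replicate 1 as the only hypertrophic library, the log2 fold change from proliferative turned positive for members that were lower without replicate 1, namely *Acat2* (0.66), *Idi1* (0.25) and *Msmo1* (0.29), and that from resting for *Lss* (0.58) and *Elovl6* (0.006); the low chondrocyte sum of the other 2 libraries goes with this, and the cause was not tested. The shares of all genes moved as well. From proliferative to hypertrophic 5.32% were higher and 4.34% lower, and 9.79% and 8.56% without hypertrophic replicate 1. In *aadd* 3.78% were higher and 2.78% lower than in resting. These shares were 4.33% and 3.75% without *aadd* replicate 1, and 3.04% and 1.96% without *aadd* replicate 3. Over the 4 groups 13.8% passed, 28.1% without hypertrophic replicate 1 and 5.74% without hypertrophic replicate 3. Where a group was left with 1 library, that library is assumed to vary like the other group. At about 1890000 to 3240000 reads a library, the values of the lowest members, *Ebp* and *Tm7sf2*, rest on few reads.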
